A study of Mus musculus with 6 samples.

Results

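The members described here are 10 genes for leukocyte chemoattractant receptors, chosen by symbol: Ccr8, Cx3cr1, Ccr1, Ccr2, Ccr3, Cxcr2, Cxcr4, Ccrl2, C5ar1 and C3ar1. All 10 were found among the 17909 genes of the expression table, and each was read in all 6 libraries. The libraries were bulk RNA-seq of cells sorted from mouse embryos of C57BL/6xFVB background, all labelled through Csf1r-iCre fate mapping, in which a recombinase driven by the Csf1r promoter marks cells and their descendants. From fetal liver at E11.5 came 3 libraries, one labelled macrophages (MAC), one labelled mast cell progenitors (MCPs) and one labelled erythro-myeloid progenitors (EMPs), the yolk sac derived progenitors from which the others are said to descend. Limb gave an MCP library on each of E11.5 and E14.5, and skin gave cells at E16.5 that one label calls MCPs and another calls mast cells. The labels of the EMP and liver MCP libraries end in a negative and a positive sort term, LiB7, which they do not explain. Each group was 1 library, so no value below has a replicate check, and whether embryos were pooled is not given in the sources used here.

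Chemokine receptors are membrane receptors with a serpentine fold that couple mainly to inhibitory G proteins. They steer white blood cells along gradients of small secreted proteins, the chemokines. The anaphylatoxin receptors C5ar1 and C3ar1 belong to the same broad receptor class and respond to fragments of complement proteins C5 and C3. Ccrl2 is an atypical member that binds the attractant chemerin without known signalling of its own, and is known to present it to neighbouring cells. Mast cells mature in connective tissue, and their progenitors reach it from the blood, which is the setting in which these receptors are read in mast cell biology.

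Expression was deposited as FPKM, fragments per kilobase of transcript scaled to the mapped fragments of the library, which allows levels of different genes to be compared per length. Depth was estimated from the steps between FPKM values at 8850000 to 12550000 fragments per library. Intervals given below for single levels are 95% exact Poisson intervals on the estimated fragments and cover counting error only. The interval given with a difference sets the low end of one library against the high end of the other. It is therefore wider than a 95% interval of the difference. The skin library listed 5675 genes at 1 FPKM or more, against 8270 to 8754 in the other libraries. Its 16 mast cell markers summed to 16000 FPKM, of which Cpa3 was 13493.94 FPKM, against sums of 67.3 to 3903 FPKM elsewhere. In the macrophage-labelled library 8 of 11 macrophage markers reached 1 FPKM and summed to 89.5 FPKM, with Csf1r at 34.11 and C1qb at 6.82 FPKM. The same library carried all 15 neutrophil markers at 1 FPKM or more, with a sum of 8176 FPKM, and 8 eosinophil markers with a sum of 10025 FPKM, led by Prg2 at 5617.33 FPKM. Granulocyte genes were thus far above macrophage genes in it, and it is called the macrophage-labelled library throughout.

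The receptor make-up differed from library to library. Cxcr4 was the most abundant member in each liver library, with 44.2% of the summed FPKM of the 10 members in the macrophage-labelled one, 51.8% in that of EMPs and 26.8% in that of liver MCPs. Ccr8 was the most abundant member in limb MCPs, with 72.5% at E14.5 and 39.0% at E11.5. In the skin library Ccrl2 led with 53.5% of the sum and Ccr8 followed with 23.6%. The summed FPKM was 212 in the macrophage-labelled library, 60.2 in EMPs, 53.2 in liver MCPs, 120.2 in limb MCPs at E11.5, 306 in limb MCPs at E14.5 and 54.6 in the skin library. Limb MCPs at E14.5 thus had the largest total, and most of it was a single receptor.

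**Figure D1:**
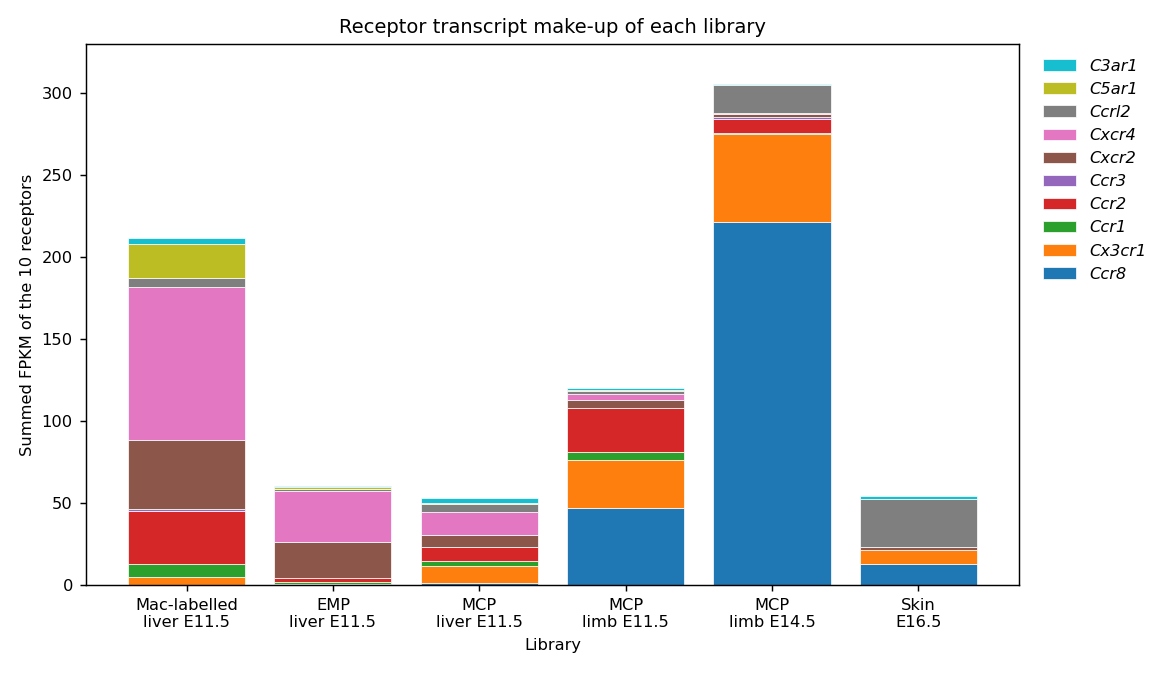
Summed FPKM of the 10 receptors in each library (vertical axis, FPKM; horizontal axis, library, 1 per group), with each receptor as one coloured segment of the bar. Ccr8 fills 221.63 of 306 FPKM in limb MCPs at E14.5, Cxcr4 is the largest segment in the 3 liver libraries, and Ccrl2 is the largest in the skin library.

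The promoters of the members that led a library are printed to show the sequence next to the changes described below. They are RefSeq windows of up to 250 bases upstream of the start site on GRCm38.p6, with bases inside annotated exons removed. The Ccr8 window is chr9:120091883-120092113 on the plus strand. The Cxcr4 window is chr1:128592300-128592549 on the minus strand, and the Ccrl2 window is chr9:111057520-111057768, also on the minus strand. Capitals mark matches to the letters AGATAA or TGATAA (bound by GATA factors), GAGGAA (PU.1), CACGTG or CATGTG (E-box) and TGACTCA (AP-1), searched on both strands.
Ccr8: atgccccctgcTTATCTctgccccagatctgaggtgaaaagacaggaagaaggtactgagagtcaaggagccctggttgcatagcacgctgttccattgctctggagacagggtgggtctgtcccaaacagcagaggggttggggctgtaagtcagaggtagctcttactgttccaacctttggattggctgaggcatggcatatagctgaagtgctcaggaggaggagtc
Cxcr4: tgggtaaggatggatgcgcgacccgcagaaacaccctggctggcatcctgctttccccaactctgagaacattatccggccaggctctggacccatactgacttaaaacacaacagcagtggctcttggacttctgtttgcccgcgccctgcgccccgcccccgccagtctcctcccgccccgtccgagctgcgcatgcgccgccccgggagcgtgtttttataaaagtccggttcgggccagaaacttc
Ccrl2: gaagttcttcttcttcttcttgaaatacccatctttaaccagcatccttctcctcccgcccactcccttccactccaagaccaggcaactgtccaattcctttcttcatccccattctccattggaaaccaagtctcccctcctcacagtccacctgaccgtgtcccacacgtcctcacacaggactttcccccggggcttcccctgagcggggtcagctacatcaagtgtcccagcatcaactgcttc
The Ccr8 window held 1 GATA match, on the minus strand as its reverse complement, and the Cxcr4 and Ccrl2 windows held no match to any of these letters. Of the 7 members with at least 200 usable bases, 3 held a GATA match (Ccr8, Ccr3 and C3ar1), 3 a PU.1 match (Ccr1, Ccr3 and Cxcr2), 2 an AP-1 match (Ccr3 and C3ar1) and 0 an E-box match. Among all 32851 windows the shares with a match were 16.6% for GATA, 23.3% for PU.1, 4.46% for AP-1 and 17.6% for the E-box. Those windows were full 250-base stretches with exon bases kept, and a gene could have several. The shares are therefore not an exact match for the trimmed member windows. A match describes letters in a window and is not evidence of binding.

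Ccr8, a receptor for the chemokines Ccl1 and, in the mouse, Ccl8, lies at chr9:120092114-120094906 on the plus strand (GRCm38, GENCODE M21). It was listed at 0.39 FPKM in the macrophage-labelled library, 0 in EMPs, 1.23 in liver MCPs, 46.91 in limb MCPs at E11.5, 221.63 in limb MCPs at E14.5 and 12.88 FPKM in the skin library. All 3 libraries from limb and skin were above all 3 from liver. The estimated fragments behind the limb MCPs at E14.5 were 2842, and those behind liver MCPs were 17. In EMPs the counting interval of the value of 0 reached 0.261 FPKM. The order of the 4 highest libraries held beyond counting error, whereas the counting intervals of liver MCPs and the macrophage-labelled library overlapped, as did those of that library and EMPs.

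Cx3cr1, the receptor for the membrane-bound chemokine fractalkine, lies 22235 bases from Ccr8 on the other strand, at chr9:119901616-120069879. Its FPKM was 4.48 in the macrophage-labelled library, 0.73 in EMPs, 10.52 in liver MCPs, 29.54 in limb MCPs at E11.5, 53.55 in limb MCPs at E14.5 and 8.80 in the skin library. It shared with Ccr8 the highest value in limb MCPs at E14.5 and the lowest in EMPs. Unlike Ccr8 it was already at 10.52 FPKM in liver MCPs, and the counting intervals of liver MCPs and the skin library overlapped. The annotated span of Cx3cr1 overlaps 5 other genes of the table, among them Csrnp1 on the same strand. The overlap was read from whole gene spans, introns included. Whether exons are shared, and so whether reads could be counted to either gene, was not checked. Csrnp1 was at 3.32 FPKM in the macrophage-labelled library, 3.82 in EMPs, 0.03 in liver MCPs, 8.89 and 14.60 in limb MCPs at E11.5 and E14.5, and 0 in the skin library.

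Ccr1, Ccr2 and Ccr3 lie together at the far end of chromosome 9. Ccr2, the receptor for Ccl2 that monocytes need to leave marrow, is at chr9:124101950-124113557. It had 32.61 FPKM in the macrophage-labelled library, 1.94 in EMPs, 8.59 in liver MCPs, 26.80 in limb MCPs at E11.5, 9.02 in limb MCPs at E14.5 and 0.09 in the skin library. Its highest value among the MCP libraries was therefore in limb at the earlier stage, and the values of limb MCPs at E14.5 and liver MCPs differed by less than counting error. Ccr1, a receptor for Ccl3 and Ccl5 (chr9:123962124-123968692, minus strand), had 7.93 FPKM in the macrophage-labelled library, 1.48 in EMPs, 2.82 in liver MCPs, 4.77 and 0.28 in limb MCPs at E11.5 and E14.5, and 0 in the skin library. Ccr1 and Ccr2 thus had the same order of the 2 highest libraries, the macrophage-labelled library and then limb MCPs at E11.5. Ccr3, the eotaxin receptor known from eosinophils (chr9:124021972-124031689), stayed below 1 FPKM in all 6 libraries. Its values were 0.91 in the macrophage-labelled library, 0.80 in limb MCPs at E14.5, 0.07 in liver MCPs and 0 in the other 3, so it entered no test of size. How any reads shared among Ccr1, Ccr2, Ccr3 and related genes such as Ccr1l1 were divided is not given in the sources used here, so their levels are uncertain to that extent. The likeness of their sequences was not measured.

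The 2 CXC receptors had lower deposited values at each step from liver MCPs through the earlier and later limb MCPs to the skin library. Cxcr4, the receptor for Cxcl12 that holds progenitors in marrow and fetal liver, lies at chr1:128588199-128592293 on the minus strand. It had 93.46 FPKM in the macrophage-labelled library, 31.21 in EMPs, 14.27 in liver MCPs, 3.26 in limb MCPs at E11.5, 0.78 in limb MCPs at E14.5 and 0.06 in the skin library. Each library after the first was lower than the one named before it, and the counting intervals overlapped only for the last pair. Cxcr2, the receptor for neutrophil-attracting CXC chemokines, is at chr1:74153989-74161246. It had 42.32 FPKM in the macrophage-labelled library, 22.29 in EMPs, 7.17 in liver MCPs, 5.16 in limb MCPs at E11.5, 2.08 in limb MCPs at E14.5 and 1.5 in the skin library. The order of the libraries was that of Cxcr4, with overlapping intervals between liver and limb MCPs at E11.5 and between limb MCPs at E14.5 and the skin library. In that last step Cxcr2 differed by -0.30 in log2(FPKM + 1), where the median of all tested genes was -1.11. Relative to that median it was 0.81, so its lower skin value was less than the shift of the whole library.

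Ccrl2, at chr9:111054486-111057519 on the minus strand, was the only member with its highest value in the skin library. It had 5.32 FPKM in the macrophage-labelled library, 0.78 in EMPs, 4.81 in liver MCPs, 2.11 in limb MCPs at E11.5, 16.85 in limb MCPs at E14.5 and 29.23 in the skin library. The skin library and limb MCPs at E14.5 stood above the other 4 beyond counting error, and every neighbouring pair among those 4 had overlapping intervals. Libraries further apart did differ. The intervals of the macrophage-labelled library (3.64 to 7.50 FPKM) and liver MCPs (3.27 to 6.84 FPKM) lay above that of EMPs (0.249 to 1.79 FPKM). C5ar1, the receptor for the complement fragment C5a (chr7:16246743-16259540, minus strand), had 20.76 FPKM in the macrophage-labelled library, 1.69 in EMPs, 0.63 in liver MCPs, 0.47 in limb MCPs at E11.5, 0 in limb MCPs at E14.5 and 0.09 in the skin library. The macrophage-labelled library stood apart, and the other 5 had overlapping intervals between neighbours in the order. The interval of EMPs (0.884 to 2.84 FPKM) nonetheless lay above that of limb MCPs at E14.5 (0 to 0.519 FPKM). C3ar1, the receptor for C3a (chr6:122847138-122856161, minus strand), had 3.44 FPKM in the macrophage-labelled library, 0.11 in EMPs, 3.05 in liver MCPs, 1.18 in limb MCPs at E11.5, 0.79 in limb MCPs at E14.5 and 1.98 in the skin library. EMPs were lowest for C3ar1, and the macrophage-labelled library and liver MCPs differed by less than counting error. Over all 10 members, 22 of the 50 pairs of libraries that neighbour each other in the order of levels had overlapping intervals. Intervals were made for the members only, so no share over all genes stands beside this count. The highest value was in the macrophage-labelled library for 7 members, in limb MCPs at E14.5 for 2 and in the skin library for 1. Among those 7, Ccr3 and C3ar1 had overlapping intervals between the highest library and the next. No share of all genes with their highest value in each library stands beside these counts.

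**Figure D2:**
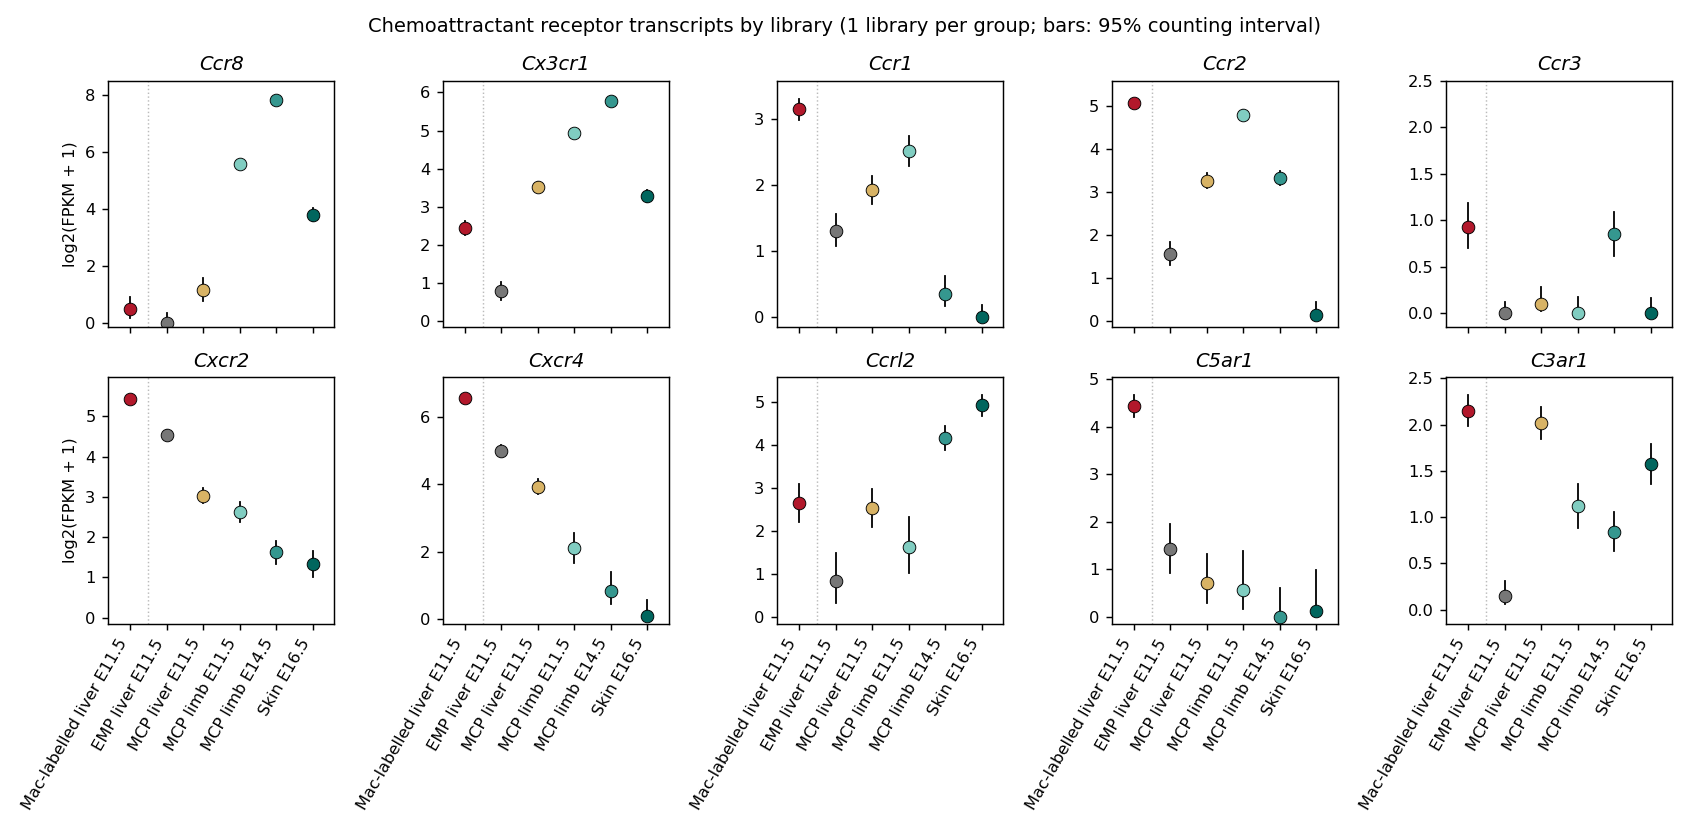
Level of each receptor as log2(FPKM + 1) (vertical axis, scaled per panel) in the 6 libraries (horizontal axis, with a dotted line after the macrophage-labelled library). Points are single libraries and bars are 95% counting intervals; Ccr8 and Cx3cr1 peak in limb MCPs at E14.5, Cxcr4 and Cxcr2 descend from the macrophage-labelled library to skin, and Ccrl2 is highest in skin.

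Pairs of libraries were compared as differences of log2(FPKM + 1), where the added 1 makes the difference understate changes of low genes. The call rule asked for a difference of 2 or more in size, 4-fold on that scale, and for 1 FPKM or more on either side. Folds are ratios of FPKM, given only where neither library was listed at 0. In bulk samples, fewer cells with a transcript and less transcript per cell cannot be told apart.

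In the macrophage-labelled library against EMPs, both from liver at E11.5, all 10 members were above their EMP value. Ccr2, C5ar1 and C3ar1 rose past the threshold. Ccr2 had 32.61 against 1.94 FPKM, a difference of 3.52 (counting interval 3.15 to 3.87). C5ar1 had 20.76 against 1.69 FPKM, a difference of 3.02 (2.27 to 3.75). C3ar1 had 3.44 against 0.11 FPKM, which puts it exactly on the threshold at 2.0 (1.66 to 2.26). Of all 9124 genes tested 1.37% were called higher and 0.690% lower, against 3 and 0 of the 8 members tested. The differences of Ccr1, Ccrl2, Cx3cr1, Cxcr4 and Cxcr2 were 1.85, 1.83, 1.66, 1.55 and 0.90. The median difference was 1.84 over the tested members and -0.24 over all tested genes. The summed eosinophil markers were 10025 FPKM in the macrophage-labelled library and 270 FPKM in EMPs, the neutrophil markers 8176 and 10418 FPKM, the monocyte markers other than members 275 and 138 FPKM, and the macrophage markers 89.5 and 23.8 FPKM. Mpo was the highest neutrophil marker in both, at 3621.24 FPKM in the macrophage-labelled library and 8174.05 FPKM in EMPs. Of 15 neutrophil markers 8 were called higher, among them Ngp and Ltf, and 0 lower. The part of these marker groups in the receptor differences was not tested.

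In liver MCPs against EMPs, Cx3cr1 alone rose past the threshold, with 10.52 against 0.73 FPKM and a difference of 2.74 (2.37 to 3.09). C3ar1, Ccr2 and Ccrl2 fell just short, with differences of 1.87, 1.71 and 1.71, and Ccr8, at 1.23 FPKM in liver MCPs, was listed at 0 in EMPs. Cxcr2 and Cxcr4 had negative differences of -1.51 and -1.08. Of 9448 genes tested 1.40% were called higher and 1.71% lower, against 1 and 0 of 9 members. The median difference was 1.16 over the tested members and -0.08 over all tested genes. The mast cell markers summed to 382 FPKM in liver MCPs and 130 FPKM in EMPs, and the neutrophil markers to 1055 FPKM in liver MCPs and 10418 FPKM in EMPs. Erythroid markers summed to 340 FPKM in liver MCPs and 66.0 FPKM in EMPs, with 5 of 11 tested called higher. Their part in the receptor differences was not tested.

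In the macrophage-labelled library against liver MCPs, C5ar1, Cxcr4 and Cxcr2 rose. C5ar1 had 20.76 against 0.63 FPKM, a difference of 3.74 (2.89 to 4.39). Cxcr4 had 93.46 against 14.27 FPKM, a difference of 2.63 (2.32 to 2.94), and Cxcr2 had 42.32 against 7.17 FPKM, a difference of 2.41 (2.14 to 2.67) that was 1.96, short of the threshold, with 5 added in place of 1. Cx3cr1 and Ccr8 were the only members with a negative difference, at -1.07 and -0.68, and Ccrl2 and C3ar1 were at 0.12 and 0.13. The counting intervals of Ccr8 (-1.39 to 0.15), Ccrl2 and C3ar1 include 0. Of 9529 genes tested 3.27% were called higher and 2.64% lower, against 3 and 0 of 9 members. The median difference was 1.23 over the tested members and -0.18 over all tested genes. Eosinophil markers summed to 10025 FPKM in the macrophage-labelled library and 90.8 FPKM in liver MCPs, neutrophil markers to 8176 and 1055 FPKM, and mast cell markers to 67.3 and 382 FPKM. Macrophage markers summed to 89.5 and 8.83 FPKM, with Csf1r, C1qb and Adgre1 called higher, and monocyte markers other than members to 275 and 56.8 FPKM, with 4 of 8 called higher. Erythroid markers summed to 30.3 FPKM in the macrophage-labelled library and 340 FPKM in liver MCPs, with 8 of 11 tested called lower. The part of these markers was not tested. These 3 comparisons share libraries with one another and are not independent.

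**Figure D3:**
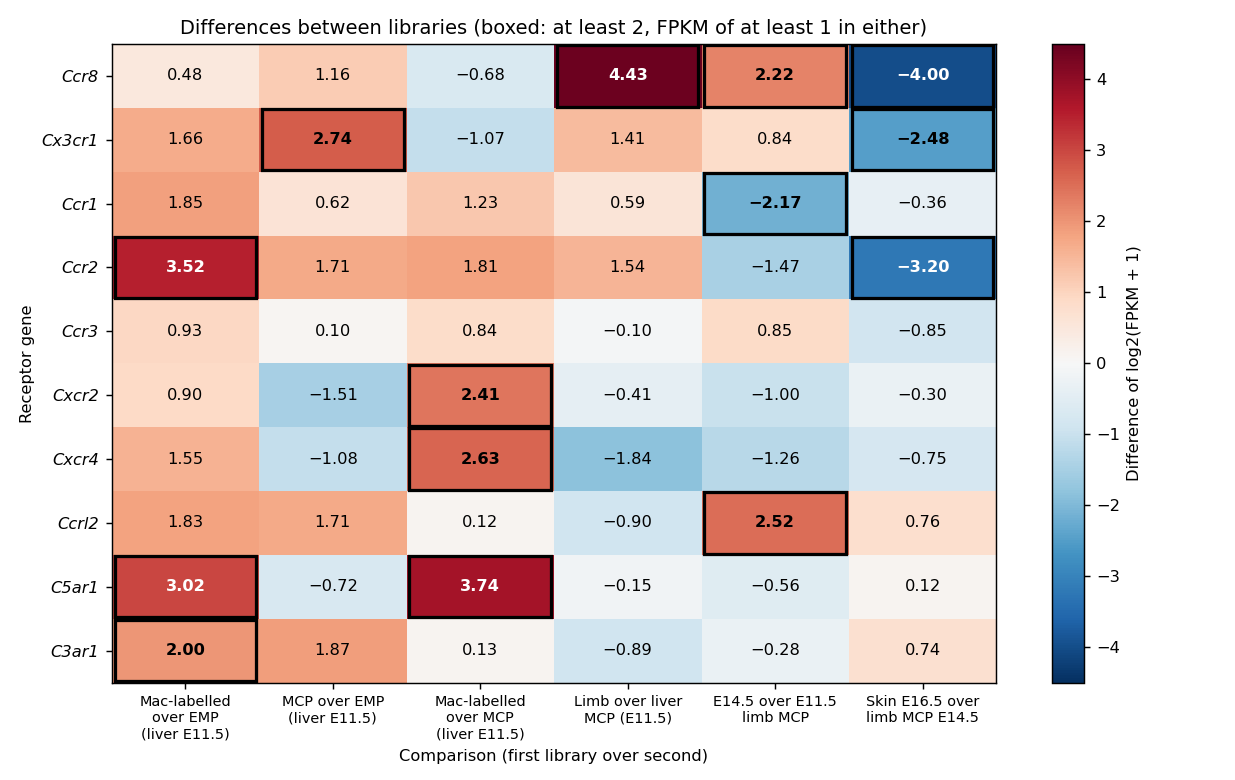
Difference of log2(FPKM + 1) for each receptor (rows) in each of the 6 comparisons (columns, first-named library over second), with values printed in the cells and red for higher in the first. Black boxes mark the 14 called differences; Ccr8 is boxed in all 3 comparisons that move along limb and skin, with 4.43, 2.22 and -4.00.

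The comparison of limb with liver MCPs, both at E11.5, asks how receptors differ between progenitors of these tissues. Ccr8 alone rose, with 46.91 FPKM in limb and 1.23 in liver, a 38.1-fold ratio and a difference of 4.43 (3.89 to 4.94). Ccr2, at 26.80 against 8.59 FPKM, and Cx3cr1, at 29.54 against 10.52 FPKM, were higher by 1.54 and 1.41, short of the threshold. Cxcr4, at 3.26 against 14.27 FPKM, had the most negative difference, -1.84 (-2.50 to -1.15). Of 9547 genes tested 0.807% were called higher and 2.09% lower, against 1 and 0 of 8 members. The median difference was 0.09 over the tested members and -0.09 over all tested genes. Of 11 erythroid markers tested 6 were called lower in limb, among them Hbb-b1 with 0.19 FPKM in limb and 119.88 FPKM in liver, and the summed mast cell markers were 794 and 382 FPKM. Neither was tested for a part in the Ccr8 difference.

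Between limb stages, E14.5 over E11.5, Ccr8 and Ccrl2 rose and Ccr1 fell. Ccr8 had 221.63 against 46.91 FPKM, a 4.72-fold ratio and a difference of 2.22 (2.03 to 2.40). Ccrl2 had 16.85 against 2.11 FPKM, a 7.99-fold ratio and a difference of 2.52 (1.56 to 3.40), the wide interval coming from an estimated 10 fragments at E11.5. Ccr1 had 0.28 against 4.77 FPKM, a difference of -2.17 (-2.57 to -1.68). Cx3cr1 was at 0.84, and Ccr2, Cxcr4 and Cxcr2 were at -1.47, -1.26 and -1.0. The receptors of limb MCPs thus differed in both directions within 1 tissue. Of 9500 genes tested 1.81% were called higher and 1.34% lower, against 2 and 1 of 8 members. The median difference was -0.64 over the tested members and 0.05 over all tested genes. The mast cell markers summed to 3903 FPKM at E14.5 and 794 FPKM at E11.5, the neutrophil markers to 2.30 and 488 FPKM, and the monocyte markers other than members to 4.95 and 47.9 FPKM. Connective tissue and skin markers summed to 59.9 FPKM at E14.5 and 7.75 FPKM at E11.5, with Col1a2 at 17.86 and 0.20 FPKM. Eosinophil markers other than members summed to 1.8 FPKM at E14.5 and 97.4 FPKM at E11.5, with 4 of 7 tested called lower, and macrophage markers to 2.26 and 8.31 FPKM. Csf1r, Ly6c2 and Ltf were listed at 0 at E14.5 and were at 0.50, 0.59 and 0.67 FPKM at E11.5, whereas Cd68, Plac8 and Mpo were still at 1.51, 3.42 and 1.25 FPKM at E14.5. The part of these marker genes in the receptor differences was not tested.

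The skin library at E16.5 differed from limb MCPs at E14.5 in tissue and in age at once, and these cannot be told apart. Ccr8, Ccr2 and Cx3cr1 fell. Ccr8 had 12.88 against 221.63 FPKM, a difference of -4.00 (-4.29 to -3.72). Ccr2 had 0.09 against 9.02 FPKM, a difference of -3.20 (-3.48 to -2.72), with an estimated 2 fragments in skin. Cx3cr1 had 8.80 against 53.55 FPKM, a difference of -2.48 (-2.70 to -2.25). The whole library was shifted, however, with a median difference of -1.11 over all tested genes, and 19.2% of 8984 genes were called lower and 0.879% higher, against 3 and 0 of 6 members. Relative to that median the differences were -2.90 for Ccr8, -2.09 for Ccr2, -1.37 for Cx3cr1 and 1.87 for Ccrl2. Ccrl2 had 29.23 against 16.85 FPKM, a difference of 0.76 (0.25 to 1.26) as deposited, and passed the threshold at 2.18 after scaling by the median of gene ratios. Under the same scaling Cx3cr1 stood at -1.11 and was no longer called, while Ccr8 at -2.60 still was. Over the tested members the median difference was -1.39. Mast cell markers summed to 16000 FPKM in the skin library and 3903 FPKM in limb MCPs at E14.5, and Cpa3 alone had 13493.94 and 1855.57 FPKM. Of the 16 mast cell markers 14 reached 1 FPKM in each library, and Gata2 was listed at 0 in skin. All 16 were tested, with 5 called higher and 3 lower (Gata2, Mcpt1 and Mcpt2), and their median difference was 0.09. The larger sum in skin was thus mostly Cpa3 and not a rise of the list as a whole. Mcpt1 had 0.11 against 11.56 FPKM and Mcpt2 had 4.60 against 44.49 FPKM. Monocyte markers other than members summed to 4.83 FPKM in skin and 4.95 FPKM in limb, with Plac8, called lower, at 0 and 3.42 FPKM and F13a1 at 3.36 and 0.40 FPKM. Cd68, the 1 macrophage marker tested, was called higher in skin, with 14.58 against 1.51 FPKM. Siglecf, 1 of 2 eosinophil markers tested, was also called higher, at 8.09 and 0.77 FPKM. So was Ctsg, 1 of 2 neutrophil markers tested, at 6.93 and 0.18 FPKM. None of these 3 lists had a marker called lower. Connective tissue and skin markers summed to 11.7 FPKM in skin and 59.9 FPKM in limb, with 3 of 5 tested called lower (Prrx1, Col3a1 and Pecam1). The part of these markers in the receptor differences was not tested. Because FPKM is a share of a library, its part in the lower values of other genes was not tested.

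Along liver MCPs, the earlier and later limb MCPs and the skin library, a gene was called ordered when every step went one way and the ends differed by at least 2. Cxcr4 was the only member called falling, with 14.27, 3.26, 0.78 and 0.06 FPKM, among 5.31% of 10288 genes. No member was called rising, against 0.953% of genes. Without the skin library Ccr8, with an end difference of 6.64, and Cx3cr1, with 2.24, were called rising, against 1.93% of 10051 genes, and Cxcr4, with -3.10, was the 1 member called falling, against 1.38%. Steps along this order change tissue, age or both.

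Other receptors of the same families were read from lists of related genes. Of 11 listed chemokine receptors that are not members, 1 reached 1 FPKM in the macrophage-labelled library, 1 in EMPs, 3 in liver MCPs, 3 in limb MCPs at E11.5 and 0 in limb MCPs at E14.5 and in the skin library. None of those tested was called in any of the 6 comparisons, and in the skin comparison none was high enough to be tested. At the shares of all genes called, so few tested genes could hold none. Ccr9, a gut and thymus homing receptor, was at 2.5 FPKM in limb MCPs at E11.5 and 2.62 FPKM in liver MCPs, with 0.03 to 0.97 FPKM in the other libraries. Among the chemerin receptors, Cmklr1 had 2.07 FPKM in the skin library and 0 in limb MCPs at E14.5, and Gpr1 had 2.51 and 0.05 FPKM. Neither passed the threshold, and both had their highest value in the skin library, as Ccrl2 did.

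Receptors for attractants other than chemokines were read from a list of 14. Of 9 tested in the macrophage-labelled library against EMPs, 2 rose and 0 fell, where 1.37% and 0.690% of all genes did. The 2 were the formyl peptide receptors Fpr2, with 7.41 against 0.13 FPKM, and Fpr1, with 6.32 against 0.06 FPKM. Against liver MCPs the macrophage-labelled library was called higher for 4 of 9, namely Fpr1, Fpr2, the platelet activating factor receptor Ptafr and the leukotriene receptor Ltb4r1. It was called lower for the lipid receptors S1pr1 and Gpr183. Of all genes 3.27% were called higher and 2.64% lower there. Gpr183, an oxysterol receptor, also rose in liver MCPs, with 17.60 against 1.0 FPKM in EMPs. It was 1 of 5 tested, where 1.40% of all genes were called higher. Between limb stages, 1 of 8 rose at E14.5 and 1 fell, S1pr2 at 9.82 against 1.59 FPKM and S1pr1 at 0.41 against 5.97 FPKM. The shares of all genes that rose and fell were 1.81% and 1.34%. Hrh4, a histamine receptor, rose in the skin library, with 11.91 FPKM against 2.12 FPKM in limb MCPs at E14.5. It was 1 of 5 tested, where 0.879% of all genes were called higher.

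Complement genes other than the 2 members were read from a list of receptors and regulators. Itgam, the alpha chain of complement receptor CR3, rose in the macrophage-labelled library, with 124.72 FPKM against 29.17 FPKM in EMPs and 21.30 FPKM in liver MCPs. It was 1 of 5 tested against EMPs and 1 of 7 against liver MCPs, where 1.37% and 3.27% of all genes were called higher. Itgam fell in limb MCPs at E14.5, with 0.26 against 13.04 FPKM at E11.5, as 1 of 6 tested, where 1.34% of all genes were called lower. Cd55 and Cd59a, which protect cells from their own complement, were both called higher in liver MCPs than in EMPs, with 14.77 against 0.69 FPKM and 7.67 against 0.84 FPKM. They were 2 of 6 tested, where 1.40% of all genes were called higher. Both were called lower in the macrophage-labelled library, at 2.60 and 0.15 FPKM, than in liver MCPs. That was 2 of 7 tested, where 2.64% of all genes were called lower. Cd55 rose again in the skin library, with 67.85 FPKM against 15.98 FPKM in limb MCPs at E14.5. It was 1 of 5 tested, where 0.879% of all genes were called higher. Cr1l, another regulator, ranged between 15.70 and 21.89 FPKM across all 6 libraries.

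Ligand genes were read in the same libraries, so they describe RNA of the sorted samples and not of the surrounding tissue as a whole. Of 30 chemokine and complement ligand genes in the table, 8 reached 1 FPKM in the macrophage-labelled library, 11 in liver MCPs and 2 in the skin library. Ccl2, the ligand of Ccr2, rose in the macrophage-labelled library, with 9.30 FPKM against 0.21 FPKM in EMPs and 0.10 FPKM in liver MCPs. It was 1 of 2 ligand genes called higher among 9 tested against EMPs, and 1 of 2 among 13 against liver MCPs. Of all genes 1.37% and 3.27% were called higher there. Ccl3, a ligand of Ccr1, had 106.77 FPKM in the macrophage-labelled library, 39.81 in EMPs, 51.23 in liver MCPs, 21.91 and 3.45 in limb MCPs at E11.5 and E14.5, and 1.71 in the skin library. At E14.5 in limb, Ccl3, Ccl5 and Ccl9 fell relative to E11.5, 3 of 7 tested, where 1.34% of all genes were called lower. Ccr1 also fell in that comparison. Cxcl12, the ligand of Cxcr4, fell in the skin library, with 0.16 FPKM against 4.70 FPKM in limb MCPs at E14.5. It was 1 of 2 ligand genes called lower among 5 tested. Of all genes 19.2% were called lower there, and the median difference was -1.11. The connective tissue gene Prrx1 had 0.18 and 4.43 FPKM in the same libraries, and its part in the Cxcl12 values was not tested. C3, the source of C3a, was lower in liver MCPs than in EMPs, with 2.59 against 44.95 FPKM, whereas C3ar1 had 3.05 against 0.11 FPKM. Of 11 ligand genes tested there C3 was the 1 called lower, where 1.71% of all genes were.

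Genes that couple these receptors to movement were read from a list with 26 genes in the table. In the macrophage-labelled library against EMPs 0 of 26 were called, where 1.37% of all genes were called higher and 0.690% lower. In limb against liver MCPs 0 of 26 were called, where the shares were 0.807% and 2.09%, so a list of this size could hold none at those shares. Gnai2, the main inhibitory G protein subunit of white blood cells, ranged from 155.81 to 376.77 FPKM outside the skin library and was at 47.86 FPKM in it. In the skin library Gnai2, Gnb2 and Arrb2 were called lower than in limb MCPs at E14.5, 3 of 24 tested, where 19.2% of all genes were called lower, and the list median of -1.02 lay near the -1.11 of all genes. Rgs1, which shortens G protein signals, rose in liver MCPs, with 84.93 FPKM against 4.79 FPKM in EMPs, and had 231.51 FPKM in the skin library. In liver MCPs against EMPs it was 1 of 26 tested, where 1.40% of all genes were called higher.

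**Figure D4:**
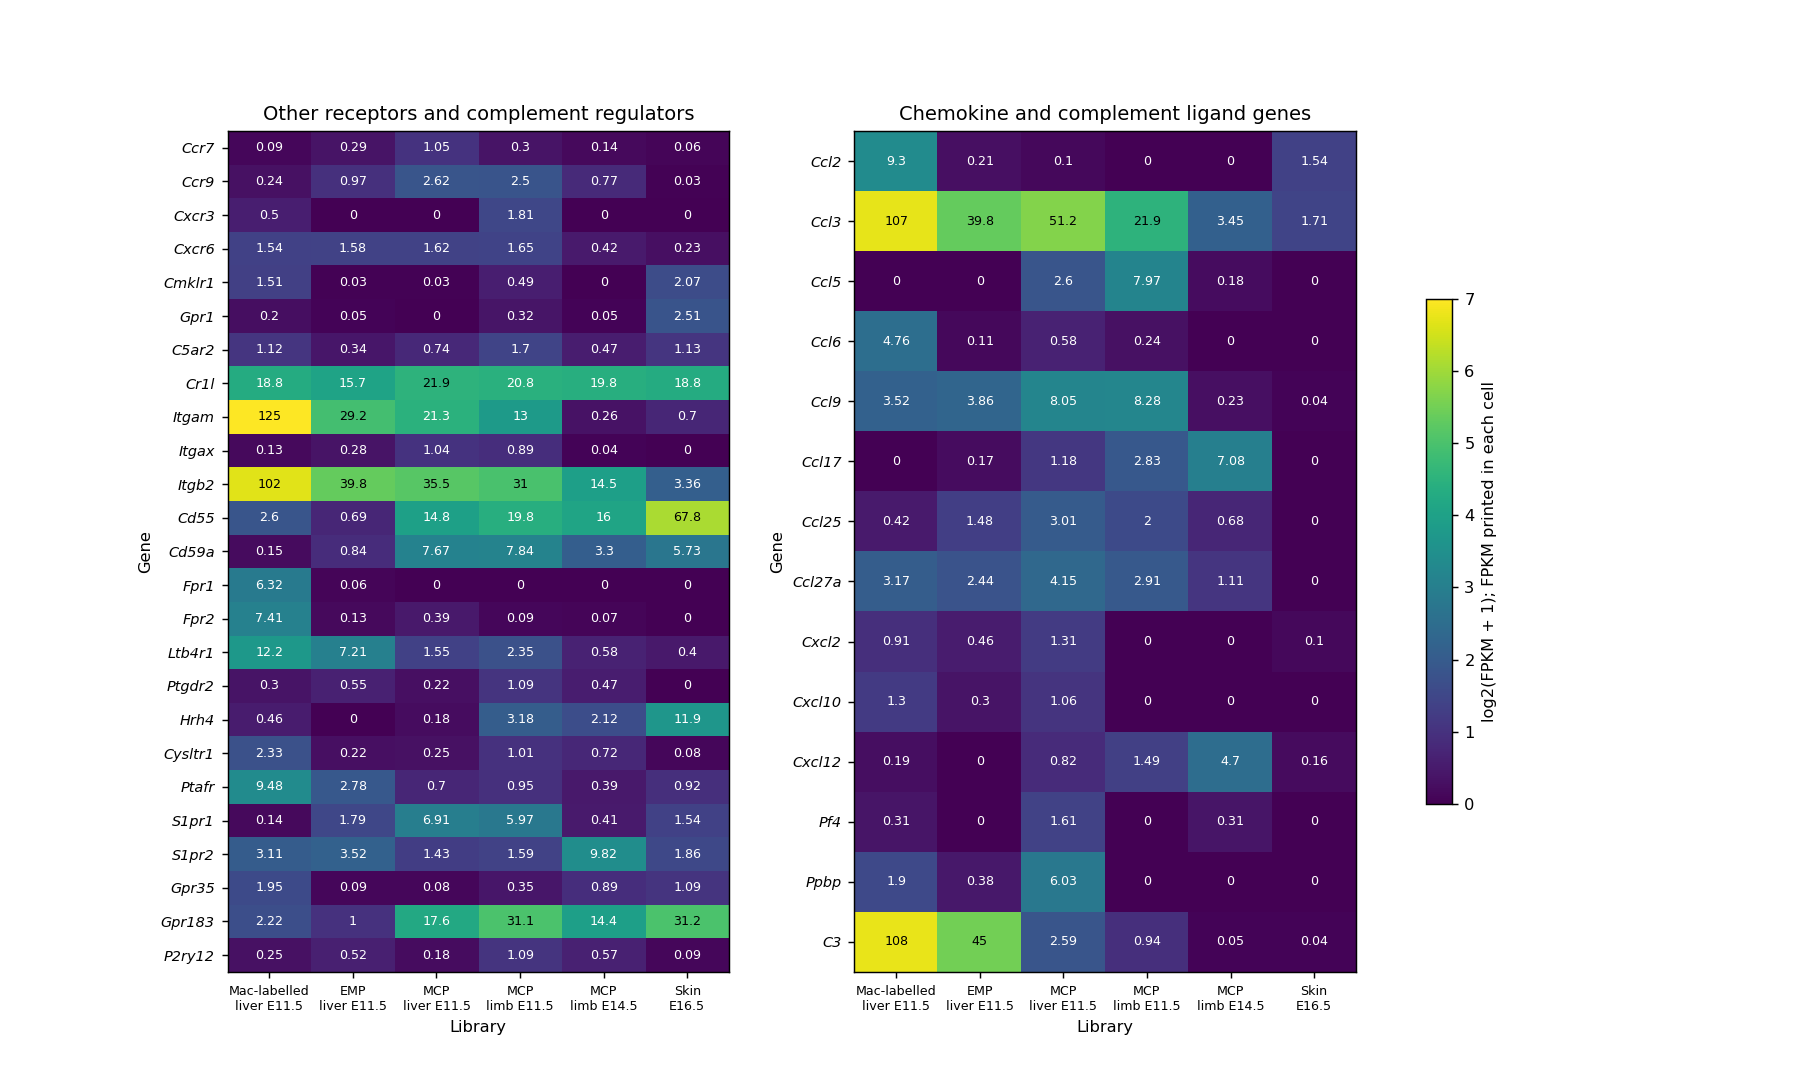
FPKM (printed in each cell) and log2(FPKM + 1) (colour) of 25 other chemoattractant receptors and complement regulators (left) and 14 ligand genes (right) that reached 1 FPKM in at least one library; columns are the 6 libraries. Fpr1 and Fpr2 reach 6.32 and 7.41 FPKM in the macrophage-labelled library, and Cd55 is highest in the skin library at 67.85 FPKM.

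For the 7 members that reached 10 FPKM, the genes with the most similar profile were found by Pearson's r of log2(FPKM + 1) over the 6 libraries, among 3815 genes. These r are descriptions over 6 points that share library, depth and scaling. Ccr8 was closest to Rapgef2 (r = 0.997), Smco4 and B3galnt1, and Cx3cr1 to Tmem60 (r = 0.989), Fam129a and Ptms. Rapgef2 had 4.43 FPKM in the macrophage-labelled library, 3.65 in EMPs, 5.36 in liver MCPs, 13.13 and 22.91 in limb MCPs at E11.5 and E14.5, and 10.22 in the skin library. Cxcr2 was closest to Irf8 (r = 0.998), Pglyrp1 and Gca, and Cxcr4 to Stfa1 (r = 0.993), Dstn and BC100530. C5ar1 was closest to Ltf (r = 0.993), Itgb2l and Asah1, Ccr2 to Ndufb3 (r = 0.986), Sri and Anxa5, and Ccrl2 to Cytip (r = 0.990), Ube2a and Iqgap1. The number of genes at r of 0.95 or more differed widely, with 107 for Cxcr2, 74 for Cxcr4, 31 for C5ar1, 23 for Ccr8, 9 each for Cx3cr1 and Ccr2, and 2 for Ccrl2.

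Genes near the members did not all share their pattern. Within 100 kb of a member lie 32 genes that are not members, of which 21 reached 1 FPKM in some library. Beside Ccr8, 15468 bases away, Slc25a38 had 7.25 FPKM in limb MCPs at E14.5 and 18.02 FPKM at E11.5, where Ccr8 had 221.63 and 46.91 FPKM. Ltf, 11719 bases from Ccrl2, had 73.20 FPKM in the macrophage-labelled library and 0 in the skin library, where Ccrl2 had 5.32 and 29.23 FPKM. C5ar2, 2589 bases from C5ar1 and the second C5a receptor, was between 0.34 and 1.70 FPKM in all 6 libraries, with 1.12 FPKM in the macrophage-labelled library. Clec4a1, a lectin receptor gene 65687 bases from C3ar1, had 8.53 FPKM in the macrophage-labelled library and at most 0.75 FPKM elsewhere.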

How the data were processed

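Bulk RNA-seq was made from sorted cells with TRIzol extraction and Illumina HiSeq sequencing, per the labels' protocols. The authors deposited 1 table in FPKM. The submitters' processing notes name Bowtie2, RSEM and the build mm10 (GRCm38), whose versions the sources used here do not give. An FPKM value is a share of a library, so a few very abundant transcripts lower all others. Of 17913 rows, 4 with repeated date-like names were dropped, and 0 columns were of other samples.

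Groups came from the labels, 1 library each, and neither p-values nor standard errors were computed. Genes were called at a difference of 2 in log2(FPKM + 1) with 1 FPKM in either library. Named genes were all 10 members; per related list and comparison the 3 with the largest difference each way; genes within 100 kb of a member; the 3 most similar profiles per member; and marker genes. Ccr9, Cr1l, Gnai2 and the ligand levels in all libraries were added after their values were seen. An item of the receptor list is not reported here. The members, lists and rules were chosen with earlier results of these data known. Depth was estimated, by a method chosen with the data seen, from 1409 genes of 600 to 2500 bases, as the total bringing implied fragments closest to whole. By that total 76.1% to 81.9% of values came within 0.2 of whole, where a total not fitted to them gives 40%. The total was fitted to these same values, so 40% is not its own chance level. Intervals use the shortest annotated transcript less 50 bases, which makes them wide. Both steps were tested on simulated data. For depth these were whole fragment counts on the same transcript lengths, which the deposited values need not follow. Positions came from GENCODE M21 and promoters from RefSeq. Alternatives were pseudocounts of 0.1 and 5, 10 FPKM or no filter, TPM, median-of-ratios scaling and equal sums without the 20 most abundant genes. Python 3.11.15, numpy 2.4.6, pandas 2.3.3 and scipy 1.17.1 were used.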

Additional observations from a re-analysis of the deposited data

How the results depend on the processing

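The 14 called member differences kept their direction in all 70 values recomputed under the alternatives. This is no check of them, because a pseudocount cannot turn a sign and differences called for their size could hardly turn under scaling. Among differences not called a sign could change. That of Cxcr2 in the skin library against limb MCPs at E14.5 was -0.30 as deposited and 0.34 under TPM. The number of members called moved. For the macrophage-labelled library against EMPs the count of 3 higher became 6 at a pseudocount of 0.1, 1 at 5 and 7 under TPM, and C3ar1 was also lost under both other scalings. For liver MCPs against EMPs the count of 1 higher became 5 at 0.1, 0 at 5 and 5 under TPM. For the macrophage-labelled library against liver MCPs Cxcr2 was lost at 5 (1.96), Ccr3 was gained under TPM (2.19) and Ccr2 under median-of-ratios scaling (2.05). For limb against liver MCPs 1 member (Cxcr4) was called lower at 0.1. Between the limb stages, 1 was called higher at 5, and the 1 lower became 0 at 5, 0 with 10 FPKM required and 2 under TPM. For the skin library 1 member (Ccrl2) was called higher under median-of-ratios scaling, Cx3cr1 was lost under TPM and both other scalings, and Ccr2 was lost at 5 and with 10 FPKM required. Members called falling along the stages were 2 at 0.1 and 0 at 5, and those rising were 2 without the skin library, an alternative chosen after seeing the data. TPM values are on a larger scale, which by construction shrinks the effect of the added 1, and other causes were not tested. Of all genes called in the skin comparison 95.6% were lower as deposited, 54.0% under median-of-ratios scaling (median difference -0.01), 68.0% with equal sums and 77.6% under TPM. The lower share was 33.5% for the macrophage-labelled library against EMPs (19.2% under median-of-ratios, 45.9% under TPM), 55.1% for liver MCPs against EMPs (40.2% under TPM), 44.7% for the macrophage-labelled library against liver MCPs (30.7% and 59.6%) and 72.2% for limb against liver (56.3% under TPM). No paired analysis was possible because each group had 1 library. Levels under about 0.5 FPKM rest on few fragments, and no replicate was left to drop.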
